A study of Mus musculus with 2 samples.

Results

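Exonic SRCAP peaks away from promoters were the merged CUT&Tag peak regions whose midpoint lay inside an annotated exon and more than 2000 bp from every annotated transcription start site (TSS). Peaks of both deposited lists were pooled, overlapping peaks were merged, and regions in which 50% or more of the bases were soft-masked repeats were left out. This gave 451 exonic regions out of 15653 merged regions outside the mitochondrial genome. The other regions comprised 8448 within 2000 bp of a TSS, 2120 in introns, 2099 in intergenic sequence and 2535 distal regions that were mostly repeats. Exonic regions were 9.66% of the 4670 distal regions outside repeats, with a 95% Wilson interval of 8.84% to 10.5%. The label held for most of their length as well as for the midpoint, since in 410 of 451 regions at least 50% of the bases were exonic and in 274 every base was.

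SRCAP is the ATPase of a chromatin remodeling complex that replaces histone H2A in nucleosomes with the variant H2A.Z, a mark best known from the nucleosomes that flank active and poised promoters. Exons are shorter, richer in GC and more densely occupied by nucleosomes than the introns around them. The last exon of a mammalian gene usually carries the 3′ untranslated region (UTR), and in genes of C2H2 zinc finger proteins it often also encodes the whole array of fingers. CpG dinucleotides are depleted from most of the mouse genome and persist where DNA is unmethylated in the germline, as in the CpG islands at promoters, and in some coding exons.

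The protein was mapped in SYAT cells, a line of CGR8 mouse embryonic stem cells in which both Srcap alleles carry an in-frame YPet-AID cassette at the 3′ end. They descend from 1 homozygous knock-in clone that was transduced with a lentiviral OsTir1 driven by the EF1a promoter and then sorted for cells that lost YPet when given auxin, so every cell of the study's SYAT line carries both the tag and the plant receptor. Both libraries came from 1 group, cells kept for 3 days in serum with LIF and with auxinole, which blocks auxin signalling through OsTir1, and they were made with an anti-GFP antibody from 200000 cells each with 10000 Drosophila nuclei and 1 h of transposition. No second condition, untagged line or antibody control was analysed here, so the background of the antibody at exons was not measured and no test between groups was possible. Regions of a library are not replicates of a condition. The shares and densities below are therefore descriptions of 2 libraries, with intervals that cover counting error only. The study's reporting form states that biological replicates were grown and treated separately, and the labels themselves do not say so for these libraries.

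The bases under these peaks are shown for members whose region holds a splice site or a searched motif in coding sequence, because these features recur in the results. Each line gives 30 bases of GRCm38, the mm10 assembly, from 5′ to 3′. In the first group capitals mark the exon and lower case the intron, on the strand of the gene:
Zc3h7b, start of exon 4, chr15:81768969-81768998, plus strand: acctgccttgcgcagGCTTTCCTGCTCAAG
Zc3h7b, end of exon 4, chr15:81769167-81769196, plus strand: TGCTACTTCACCATGgtgcgtccaccatcc
Eif2ak4, start of exon 13, chr2:118430781-118430810, plus strand: cctactggcccacagGTGCAAAACAAGCTT
Adgra2, start of exon 19, chr8:27120751-27120780, plus strand: tctgtctccccctagTTGTTGGCTGGTGTG
Lhx2, start of exon 5, chr2:38368827-38368856, plus strand: tgtcgttccacacagGTCTGGTTTCAGAAT
Prdm2, start of exon 6, chr4:143162168-143162197, minus strand: tcttctctttggtagCCAATCGCGCCTGGC
Prdm2, end of exon 6, chr4:143162041-143162070, minus strand: CGAAGAGCCGGAGAGgtaggaatcgccgcc
In the second group the whole run is coding exon and capitals mark the searched letters of the motif named, on the strand given:
Zfp777, exon 6, NRF1, chr6:48024610-48024639, plus strand: gcaggggcgggGCGCATGCtcactcgcccg
Zfp777, exon 6, SP/KLF, chr6:48024603-48024632, plus strand: ggccggggcaGGGGCGGGGcgcatgctcac
Zfp827, exon 6, E-box, chr8:79190040-79190069, plus strand: gtcttcagccgcCACGTGaagaagcaccag
Celsr3, exon 35, ZBTB33, chr9:108848761-108848790, minus strand: agtccagctgtTCTCGCGAagagtagcggc
The 7 borders each show the ag or gt of the intron next to the exon, and the 2 runs of Zfp777 overlap, so that the last base of its SP/KLF letters is the first base of its NRF1 letters, in CpG-rich coding sequence.

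The lists held 6158 peaks in replicate 1 and 12958 in replicate 2, with a score of at least 13 in both. The score was read as 10 times the −log10 of the q-value of the peak caller, so that 13 stands for a q-value of about 0.0501. Sequencing depth was unknown, and scores are compared here only within a list. As a look at the cell type, promoters of pluripotency genes held a peak for 3 of 36 genes in replicate 1 and 14 of 36 in replicate 2, where all protein-coding genes gave 16.6% and 32.1%. Pou5f1 and Sox2 were among those of replicate 2, while the promoter of Nanog held none in either list. Peak lists hold no expression values, so the identity of the cells was not tested further.

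Most exonic regions were found in 1 library only. Replicate 1 held a peak in 156 of the 451 regions, replicate 2 in 337, and both in 42, which is 9.31% with an interval of 6.96% to 12.3%. Of the exonic regions of replicate 1, 26.9% were also in replicate 2, and of those of replicate 2, 12.5% were also in replicate 1. The share in both lists was 7.78% for intronic regions, 9.58% for intergenic regions and 28.4% for regions within 2000 bp of a TSS, so exonic regions lay with the other distal regions outside repeats and below the promoter-proximal ones. Distal regions that were mostly repeats were in both lists in 24.7% of cases. Without replicate 2 only 156 exonic regions remained, and without replicate 1 there were 335.

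Exonic regions had median scores below those of all regions and above those of the other distal regions outside repeats. In replicate 1 they ran from 13 to 86 with a median of 27.5, and in replicate 2 from 13 to 104 with a median of 30, where all regions reached 4910 and 6452 with medians of 32 and 36. Intronic regions had medians of 23 in replicate 1 and 25 in replicate 2, and intergenic regions 24 and 28. A region with a higher score was more often found in the other library. When the members of replicate 1 were ranked by score and divided into 3 groups of 52, the share also found in replicate 2 went from 7.69% in the lowest group to 28.8% and 44.2%. In replicate 2 the same shares were 4.42%, 13.4% and 19.6%.

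**Figure D1:**
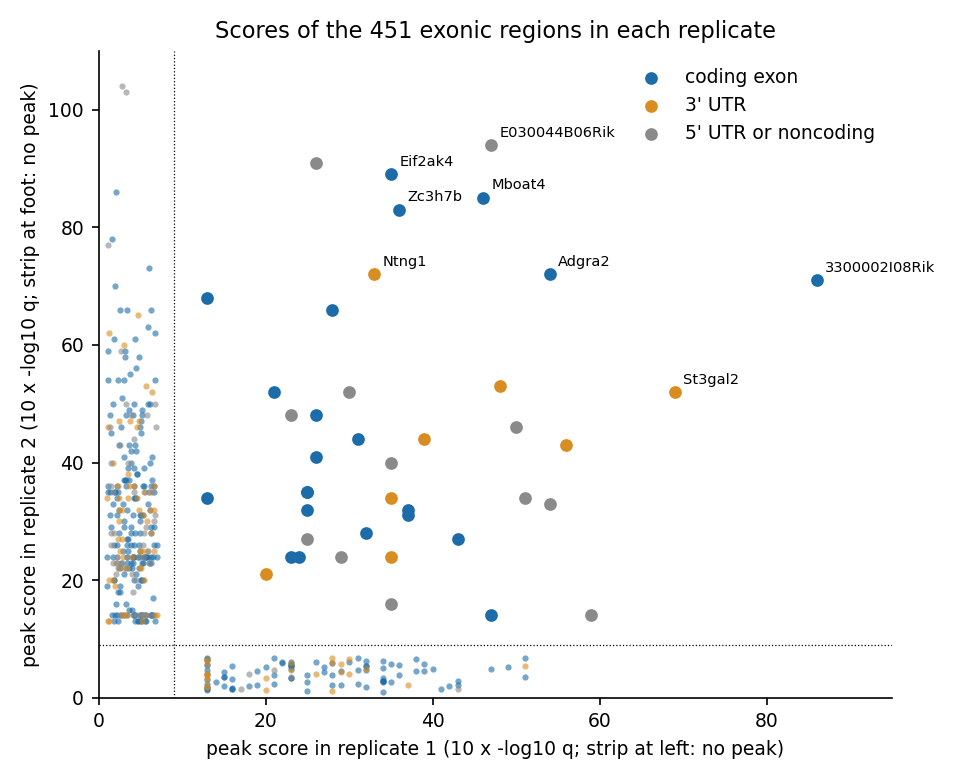
Each point is 1 of the 451 exonic regions, with its peak score (10 times the −log10 q-value) in replicate 1 on the horizontal axis and in replicate 2 on the vertical axis, coloured by exon class. The 42 regions found in both lists lie in the main field, and the strips hold the 114 regions of replicate 1 only and the 295 of replicate 2 only, jittered across the strip for legibility.

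The 10 members that ranked best in both lists, by the worse of their 2 ranks, comprised 5 coding exons, 3 regions in 3′ UTRs and 2 exons of noncoding genes, and 8 of the 10 lay in a last exon, as did 258 of all 451 members, or 57.2%, and 62.3% of positions on the exon grid described below. The coding exons belonged to unrelated genes. The last exon of 3300002I08Rik scored 86 in replicate 1 and 71 in replicate 2, the first of these being the highest exonic score of its list. Adgra2, an adhesion G protein-coupled receptor of brain vessel growth, scored 54 and 72 across the border of its last exon, whose acceptor is printed above. Mboat4, the enzyme that acylates ghrelin, scored 46 and 85 in its last exon. Both internal exons among the 10 held splice sites within the region. Zc3h7b, an RNA-binding CCCH zinc finger protein, scored 36 and 83 over exon 4 of 23, and this region of 527 bp spanned the whole exon of 198 bp. Eif2ak4, the GCN2 kinase that senses amino acid shortage, scored 35 and 89 over exon 13 of 40. Replicate 2 gave the higher number in each of these genes but 3300002I08Rik, which says nothing of strength because scores are not comparable between the lists.

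Among the 3′ UTR members of the 10, St3gal2, a sialyltransferase, scored 69 in replicate 1 and 52 in replicate 2. Scrt2, a Snail-family repressor of neural cells, scored 48 and 53. Ntng1, a membrane-anchored netrin of axon guidance, scored 33 and 72. All these lay in the last exon, and St3gal2 also held a region of replicate 2 in its 5′ UTR with a score of 28. The noncoding genes were E030044B06Rik, with 47 and 94, and Gm47062, with 30 and 52. A peak at the promoter of the host gene in at least 1 list was found for 4 of the 10, and 1 of the 10 was CpG-rich as defined below.

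The highest scores of regions found in 1 library lay below those of the shared regions in replicate 1 and above them in replicate 2, with 51 against 86 and 104 against 94. In replicate 1 only, the highest were Trpv3, a heat-gated cation channel, Rnf180, a ubiquitin ligase, and Myo5a, an unconventional myosin, each with 51. In replicate 2 only, they were Xpnpep3, an aminopeptidase, with 104, Nsmce4a, a subunit of the SMC5/6 complex, with 103, and Pcdhb19, a clustered protocadherin, with 86. The regions of Xpnpep3 and Nsmce4a lay in exons of noncoding transcripts of these coding genes, at 2224 bp and 2291 bp from the closest TSS. Each library thus held high-scoring exonic regions that the other lacked. The widest exonic regions were those of Gm31804, a noncoding gene, with 990 bp, Bcl11b with 878 bp, St3gal2 with 851 bp, Prrt4 with 790 bp and Pcdhb10 with 783 bp, and of these St3gal2 and Pcdhb10 were in both lists, so that their width is that of merged peaks.

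Coding sequence was the main class. The midpoint lay in coding sequence in 291 regions, or 64.5%, in a 3′ UTR in 91, or 20.2%, and in a 5′ UTR in 5. A further 31 lay in exons of noncoding transcripts of coding genes and 33 in exons of noncoding genes. For comparison, a regular grid of 27876 positions was laid at every 2000 bases along all exon sequence that could have qualified. On this grid 36.1% of positions were coding and 38.2% lay in 3′ UTRs, so coding positions made up a larger share of the regions and 3′ UTRs a smaller one than of the sequence. The coding share was 67.9% of the members of replicate 1 and 61.4% of those of replicate 2. It was 52.4% (37.7% to 66.6%) of the 42 members in both lists.

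Within coding sequence the regions lay in long and last exons more often than the grid did, which was not so over all members, of which 58.1% lay in exons of at least 1000 bp against 61.4% of the whole grid. The host exon measured at least 1000 bp in 47.4% of the 291 coding regions and 25.5% of coding grid positions. It was the last exon of its transcript in 121, or 41.6%, against 22.4%. Coding regions numbered 6.67 per Mb of eligible sequence in exons under 250 bp, 23.6 per Mb in exons of 250 bp to under 1000 bp and 26.8 per Mb in longer ones. The order of the first class below the other 2 was the same in each list, with 2.45, 10.5 and 8.56 per Mb in replicate 1 and 4.56, 15.6 and 20.2 per Mb in replicate 2. Long coding exons were also richer in GC, with a grid median of 50.4% against 46% in exons under 250 bp, so length and base composition moved together.

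A splice site of the host exon lay inside 147 of the 291 coding regions, or 50.5%, and inside 3 of the 91 regions in 3′ UTRs. All coding regions in exons under 250 bp held one, and the shortest region measured 236 bp. In exons of at least 1000 bp the share was 18.1%. Midpoints of coding regions lay a median of 179 bp from the closest border of the host exon, against 51 bp on the coding grid. The regions were thus not closer to exon borders than coding sequence was, and a splice-site share of the grid was not computed. The regions of Zc3h7b and Prdm2, whose borders are printed above, are examples that hold both ends of the exon, whereas Mboat4 lay inside its exon with no border.

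**Figure D2:**
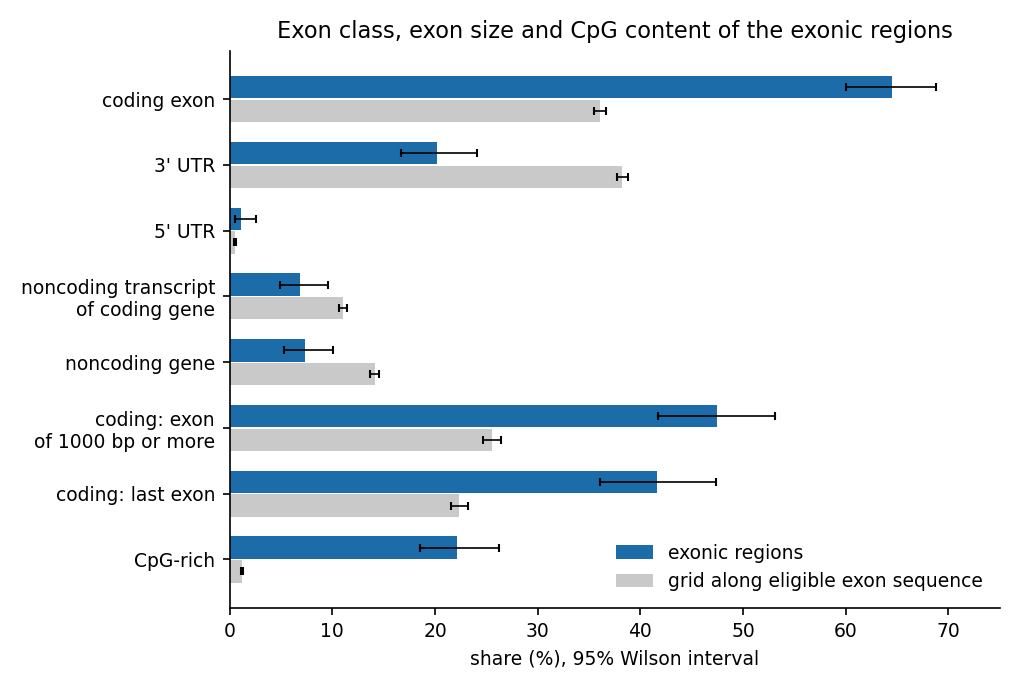
Bars give the share of the 451 exonic regions (blue) and of 27876 grid positions along eligible exon sequence (grey) in each exon class, with 95% Wilson intervals for counting error. Rows marked coding are shares of the 291 coding regions and 10061 coding grid positions. Coding exons, coding exons of at least 1000 bp, last coding exons and CpG-rich sequence take larger shares of the regions than of the grid, and 3′ UTRs a smaller one.

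Exonic regions were rich in GC and in CpG. The median GC content of 500 bp around the midpoint was 57.4%, with quartiles of 52.4% and 61.4%, against 44.8% on the exon grid, 50.8% in intronic regions and 51.4% in intergenic regions. For coding regions it was 59.4% against 47.8% on the coding grid. Windows with a GC content of at least 50% and an observed over expected CpG ratio of at least 0.6 were called CpG-rich. This held for 100 of 451 exonic regions, or 22.2% (18.6% to 26.2%), and for 1.18% of the exon grid. The same share was 2.74% of intronic regions, 6.81% of intergenic regions and 64.5% of regions within 2000 bp of a TSS. Coding regions carried 89 of the 100, while 3 of 91 regions in 3′ UTRs were CpG-rich. The libraries differed here. The CpG-rich share was 14.7% of the 156 members of replicate 1 and 26.1% of the 337 of replicate 2, and without replicate 2 it was 14.7% overall.

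The most CpG-dense coding members were single-library regions of genes with varied roles. Prdm2, a PR domain methyltransferase, had the highest CpG ratio, 1.09 with 67 CpG in 500 bp, and scored 40 in replicate 2. Maff, a small Maf transcription factor, had a ratio of 1.02 and scored 26. Tenm3, a teneurin of synaptic wiring, had 1.00 and scored 23. All 3 lacked a peak in replicate 1. Palld, an actin-associated protein, had the highest GC content of any member, 73.4%, and scored 55 in replicate 2. Pomc, the precursor of ACTH and endorphin, scored 78 in replicate 2 over its last exon with a ratio of 0.78. Nkx2-6, a homeobox gene, was a case of replicate 1, with a score of 34 and a ratio of 0.91. CpG-rich members in both lists numbered 11, among them the coding exons of Ndn, Aff3, Scn8a, Cacna1b, Nup160 and Gdf6.

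**Figure D3:**
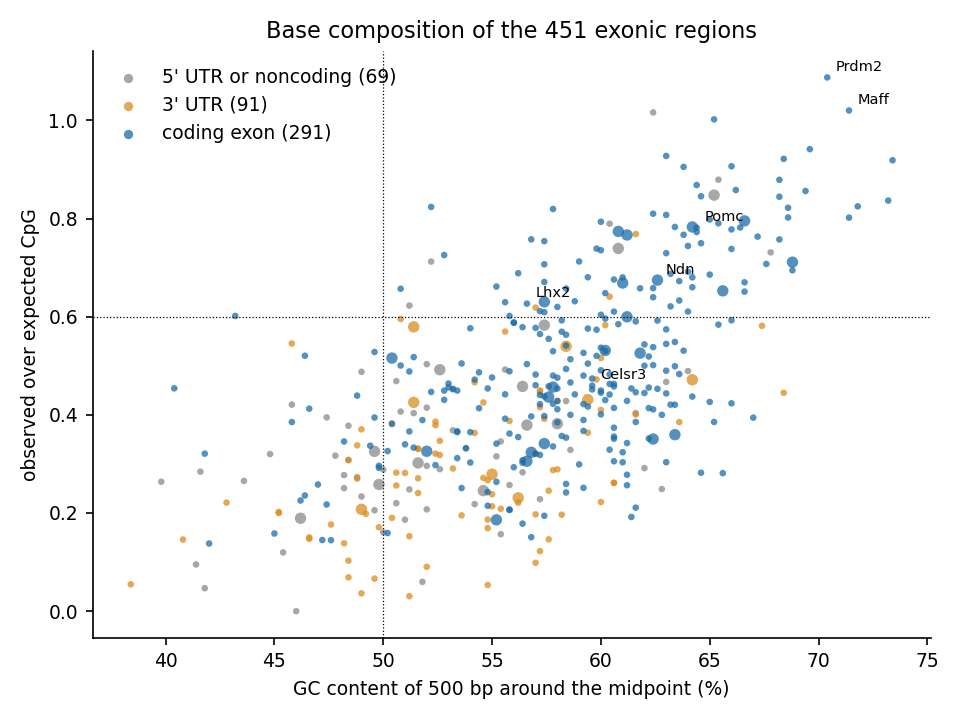
Each point is 1 exonic region, with the GC content of 500 bp around its midpoint on the horizontal axis and the observed over expected CpG ratio on the vertical axis, coloured by exon class, with larger points for the 42 regions in both lists. Dotted lines mark the limits of CpG-rich sequence, 50% GC and a ratio of 0.6. The upper right field holds 89 of the 291 coding regions and 3 of the 91 regions in 3′ UTRs, so most of both classes lie outside it.

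Per length, exons held more distal regions than introns or intergenic sequence, but within classes of equal GC content the ratio to introns lay near or below 1. The eligible exon sequence measured 56.8 Mb, which is 3.87% of all eligible sequence, and held 7.94 regions per Mb (exact Poisson interval 7.22 to 8.70). Introns held 3.24 and intergenic sequence 2.77 per Mb. By library, exons held 2.75 regions per Mb in replicate 1 and 5.93 per Mb in replicate 2. The ratio of exons to introns was 2.45, with 2.67 in replicate 1 and 2.41 in replicate 2. Density was higher in each successive GC class in every kind of sequence. In exons it went from 0.458 per Mb in windows under 45% GC to 4.16, 9.95, 28.7 and, at 60% GC and over, 132 per Mb. In introns the same classes gave 0.768, 4.40, 11.7, 28.7 and 116 per Mb. With the lists merged, the ratio of exons to introns within a class lay between 0.60 and 1.14. For replicate 2 alone the lowest ratio was 0.70 and the highest 1.15, and for replicate 1 alone they were 0.19 and 1.07, where the class under 45% GC held 1 exonic region. At 60% GC and over, exons were above introns in replicate 2, at 1.15, and below them in replicate 1, at 0.85.

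If every GC class of exon sequence held regions at the density of introns of that class, 460 exonic regions would be counted, where 451 were observed. The ratio of observed to expected was 0.98 (0.89 to 1.07, counting error of the observed regions only), with 0.94 in replicate 1 and 0.97 in replicate 2. For the 42 regions in both lists it was 0.77 (0.56 to 1.05). Intergenic densities gave an expected count of 735 and a ratio of 0.61, and a ratio of 0.37 (0.26 to 0.50) for the 42 regions in both lists. With the lists merged, exon density was 0.53 to 0.96 of intergenic density in the 5 GC classes, and it was 28.7 against 54.5 regions per Mb at 55 to 60% GC and 132 against 218 at 60% GC and over. In replicate 2 the same ratios ran from 0.51 to 0.93, and in replicate 1 from 0.28 to 0.67 in 4 classes, with 1.31 at 45 to 50% GC. The outcome depended on the width of the GC classes and on the property that was held equal. With GC classes of 2 percentage points in place of these 5, the ratio at intronic densities was 0.88. With classes of the CpG ratio in place of GC, the ratio of observed to expected at intronic densities was 1.67. GC content, CpG content and coding sequence are linked in exons, and how much of the density goes with each was not tested.

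**Figure D4:**
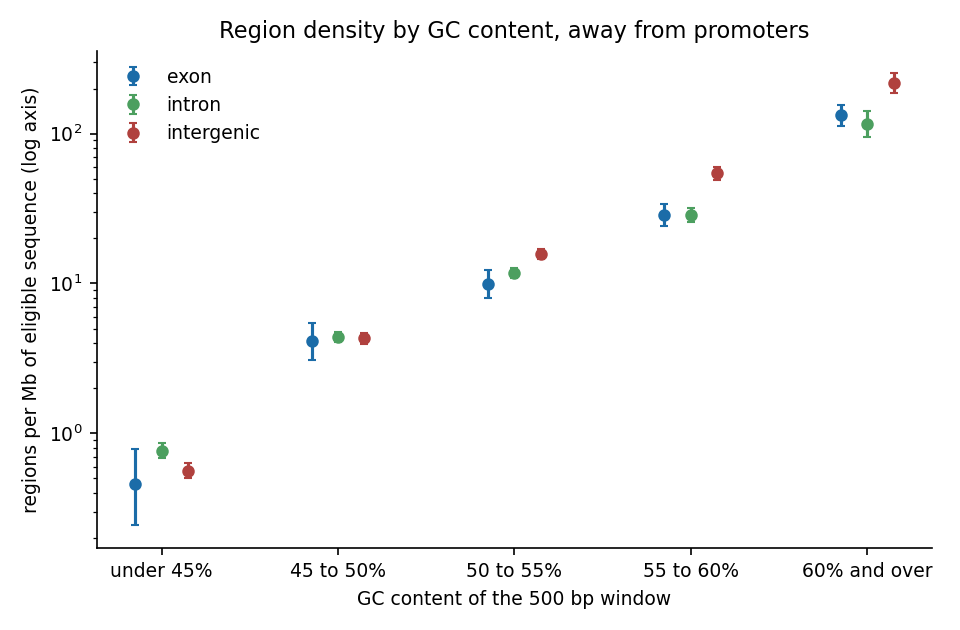
Points give the number of distal regions per Mb of eligible sequence on a log axis, in 5 classes of the GC content of 500 bp windows, for exons, introns and intergenic sequence, with exact 95% Poisson intervals of the region counts. Exons and introns follow each other across classes, and intergenic sequence lies above both from 50% GC upward.

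Regions in 3′ UTRs differed from coding ones in composition more than in score. Among members of replicate 1 the median score of 3′ UTR regions was 28 and that of coding regions 26.5, and among members of replicate 2 the medians were 31 and 30. Their median width was 322 bp against 326 bp. They were in both lists in 8 of 91 cases, or 8.79%, against 22 of 291 or 7.56%. The 8 were Epb41l5, Scrt2, Pbxip1, Ntng1, Vamp1, Efnb2, St3gal2 and Lars2. Efnb2, a transmembrane ephrin, scored 39 in replicate 1 and 44 in replicate 2. Vamp1, a synaptic vesicle protein, scored 35 and 24. Exons of noncoding genes were in both lists in 7 of 33 cases, or 21.2% (10.7% to 37.8%), an interval that overlaps that of coding regions only at its edge, from 5.05% to 11.2%. The difference was not tested, because regions of the same libraries are not replicates.

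Zinc finger genes were the list with the most exonic regions, though not with the highest share of its genes. Of 469 protein-coding genes with eligible exons whose symbol begins with Zfp, Zbtb or a related prefix, 21 held 22 regions, which is 4.48% of the genes where all protein-coding genes gave 2.17%. The prefix also takes in Zfyve27, which has a FYVE domain and no C2H2 array. Of the 22 regions, 19 were coding, 16 lay in a last exon and 10 were CpG-rich. Zfp30 scored 70, Zfp689 scored 66, Zfp777 scored 46 and Zfp827 scored 42, all in replicate 2 only. Zfp251 led replicate 1 with 38, also without a partner. In both lists were Zfp324, with 25 in replicate 1 and 35 in replicate 2, and Zfp398, with 23 and 24. Replicate 1 thus held 9 of the 22 and replicate 2 held 15, with 2 in common.

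Most of these regions lay over the finger array itself. A C2H2 finger was counted where a reading frame of the host strand held 2 cysteines and 2 histidines with the usual spacing within 250 bp of the midpoint. Of the 19 coding regions in listed genes, 16, or 84.2% (62.4% to 94.5%), held at least 1 finger, and Zfp865 held the most, 6. Coding grid positions in zinc finger genes did so in 55.6% (50.0% to 60.9%). The CpG-rich share of these 19 regions was 52.6% (31.7% to 72.7%), against 11.4% (8.37% to 15.4%) of the coding grid in zinc finger genes. Outside the list, 6 of 272 coding regions held a finger, namely those of Bcl11b, Fiz1, Prdm13, Rreb1, Slc8a3 and Zswim5, or 2.21% (1.01% to 4.73%), against 0.646% (0.506% to 0.826%) of coding grid positions outside zinc finger genes. Slc8a3 is a sodium-calcium exchanger, so the pattern also matches sequence that encodes no finger protein. Whether the repeated coding units affected read placement was not tested.

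**Figure D5:**
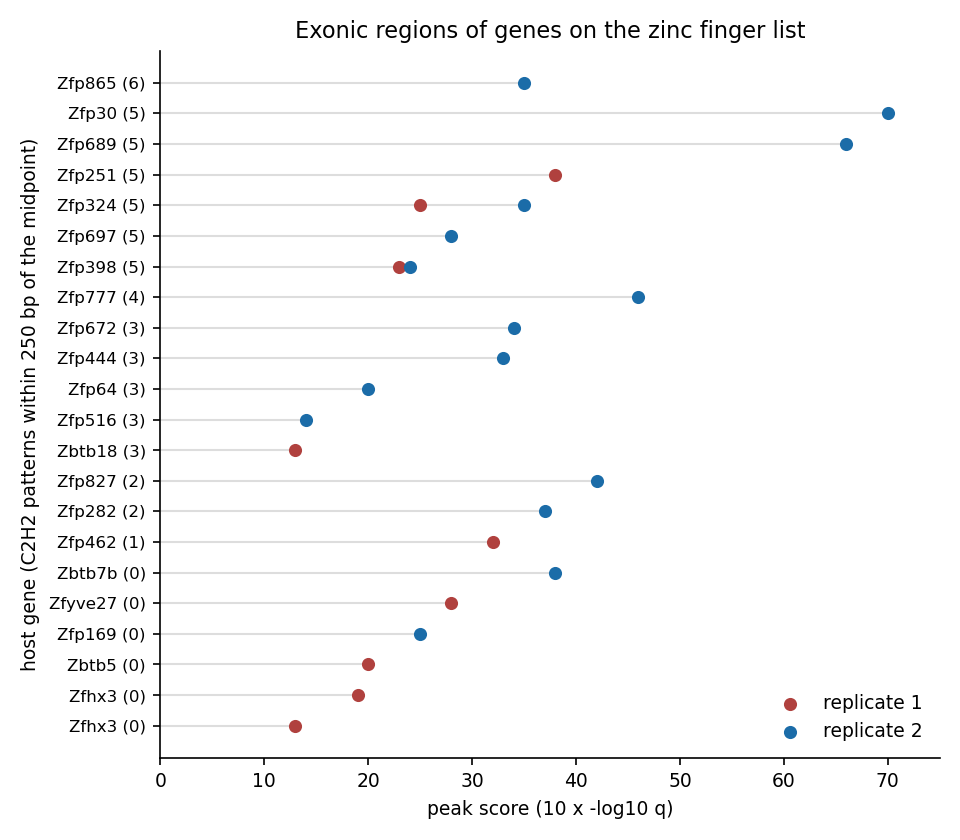
Each row is 1 of the 22 exonic regions of genes on the zinc finger list, with the number of C2H2 patterns near its midpoint in parentheses, and points give the peak score (10 times the −log10 q-value) in replicate 1 (red) and replicate 2 (blue). A row with 1 point has no peak in the other list, and Zfp324 and Zfp398 have both.

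Cadherin and protocadherin genes had the highest share of genes among the lists, with 8 of 100 genes (8%) and 8 regions, all coding. All protein-coding genes gave 2.17%. Clustered protocadherins encode their extracellular domain in 1 large exon per gene, and 5 regions lay in such exons of Pcdhb genes and 1 in Pcdha9. Pcdhb3 scored 32 in replicate 1 and 28 in replicate 2, and Pcdhb10 scored 26 and 41. Pcdhb9 had a peak in replicate 1 only, with 34, and Pcdhb14 and Pcdhb19 in replicate 2 only, with 56 and 86. These 6 regions stood at 2001 to 2201 bp from the closest TSS, just inside the limit, and Pcdhb19 set its lower end, so their membership depended on the distance chosen. Farther from a TSS were Celsr3, a seven-pass cadherin, with 43 in replicate 1 at 4185 bp, and Cdh20 with 47 in replicate 2 at 81912 bp.

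Transcription factor families of development held 7 regions in 7 of 189 genes (3.70%), where all protein-coding genes gave 2.17%. Of these regions 6 lay in last exons, as did 57.2% of all members. Shares of the gene lists were not adjusted for the length or GC content of eligible exons. Lhx2, a LIM homeobox gene, scored 48 in replicate 2, Nkx2-6 scored 34 in replicate 1 and Foxn1, the thymus factor, scored 32 in replicate 2. Pbxip1, which the prefix of the Pbx genes took in, encodes a PBX-interacting protein and was the 1 region in both lists, with 20 and 21. Signalling genes held 6 regions in 6 of 126 genes (4.76%), all in last exons. Besides Efnb2 these were Notch3 with 28, Wnt5a with 26, Wnt9b and Wnt16 with 14 each, and Bmp2k, a kinase taken in by its prefix, with 25, all in replicate 2 only.

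Chromatin regulators held 11 regions in 11 of 173 genes (6.36%), against 2.17% of all protein-coding genes. Phf19, an accessory subunit of Polycomb complex PRC2, scored 47 in replicate 1. Prdm13 scored 45, Chd7, a remodeler, scored 33 and Cbx7, a chromodomain subunit of PRC1, scored 26, all in replicate 2. Ino80d and Phf3 scored 20 each in replicate 2, Chd5 scored 29 and Arid1b 18 in replicate 1, and Kmt2c scored 14 in replicate 2. The 1 region in both lists belonged to Katnal1, with 26 and 91, which encodes a microtubule-severing protein and was taken in by the prefix of the Kat acetyltransferases. The other 10 regions were in 1 library each, where 9.31% of all members were in both.

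Other lists held few or none. Cytoskeletal and motor genes had 4 regions in 4 of 140 genes (2.86%), among them Myo9b in both lists, with 25 and 35, and Dst with 16 in replicate 1. Splicing genes had 2 in 151, which were Sf3b5 and Rbm33, and collagen and matrix genes had 1 in 92, Col6a5, with 32 in replicate 1. No exonic region was found in 10 genes of the SRCAP complex and H2A.Z, in 30 pluripotency genes, in 14 genes that the study discusses or in 768 olfactory receptor genes. For a count of 0 the limit was set at 3 divided by the number of genes, in place of a Wilson interval. It allows a share of up to 30% of the first list, 10% of the second, 21.4% of the third and 0.391% of the olfactory receptor genes. Only the last limit lay below the 2.17% of all protein-coding genes.

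A start site that the TSS annotation lacked lay near some members. In the RefSeq annotation of the same assembly a transcript began within 2000 bp of the midpoint of 29 of the 451 regions, or 6.43% (4.51% to 9.08%), and 14 of these 29 were CpG-rich (48.3%, 31.4% to 65.6%) against 20.4% (16.8% to 24.5%) of the rest. Other distal regions had such starts too, with 6.68% of all distal regions outside repeats, 4.86% of intronic and 8.58% of intergenic regions within 2000 bp. Within 500 bp there were 14 exonic regions, or 3.10%, against 3.38% of all distal regions outside repeats. Prdm2 lay 35 bp and Lhx2 63 bp from such a start. Sf3b5, a splicing factor subunit, lay 117 bp from it and scored 50 in replicate 2, and Hist1h2be, a histone H2B gene, lay 269 bp from it and scored 42. Ndn, the imprinted single-exon necdin gene, lay 352 bp from a RefSeq start and was in both lists, with 25 in replicate 1 and 32 in replicate 2. Of the 10 best-ranked members, 3300002I08Rik lay 232 bp from one, although its GENCODE distance was 5457 bp. The other 422 regions had no start in either annotation within 2000 bp.

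Many host genes lacked a peak at their own promoter, as did many genes in general. The 418 regions in protein-coding genes fell in 406 genes, of which 225, or 55.4% (50.6% to 60.2%), had no peak within 2000 bp of any of their start sites in either list, where the 18680 protein-coding genes with eligible exons gave 61.4%. In the list of replicate 1, 22.4% of host genes had a promoter peak, against 18.05% of those genes. In that of replicate 2 the shares were 39.4% and 34.5%. Host genes of the members in both lists had one in at least 1 list in 19 of 35 cases (54.3%, 38.2% to 69.5%), against 38.6% of all genes with eligible exons. By region the share with a host promoter peak was 44.5%, and it was 20.4% without replicate 2. Eif2ak4, Myo9b, Celsr3, Phf19, St3gal2 and Efnb2 had promoter peaks in both lists, whereas Mboat4, Scrt2, Ntng1, Lhx2 and Prdm2 had none in either. Another merged region lay within 5000 bp of 32 exonic regions, and for 10 of these the closest was within 2000 bp of a TSS, so most members stood alone.

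Motif letters were searched exactly, on both strands, in 500 bp around the midpoint. They were AGGGGGCG for the core of CTCF, GCGCATGC for NRF1, AAGATGGC for YY1, CCAATCA for NFY, ATTTGCAT for the OCT4 octamer, ACAAAGG for SOX2, TCAAGGTCA for ESRRB, CACGTG for the E-box, CCGGAAGT for ETS, TCTCGCGA for ZBTB33, TTCAGCACC for the REST element (9 letters of it) and GGGGCGGGG for SP/KLF. No motif of the search contained another. The CTCF core was in 4.21% of exonic regions and 0.768% of the exon grid, SP/KLF in 4.43% and 1.10%, NRF1 in 2.44% and 0.631%, and the E-box in 11.3% and 6.67%. The first 3 are rich in GC, as the regions are. Intronic and intergenic regions also exceeded the exon grid, with the CTCF core in 3.11% and 3.33% and NRF1 in 1.46% and 1.52%. The E-box was in 8.25% of intronic and 9.67% of intergenic regions. SP/KLF was in 3.49% of intronic regions and in a larger share of intergenic than of exonic ones. These higher shares were thus not particular to exonic regions. SOX2 letters were in 10.9% of exonic regions and of the grid, and in 14.9% of intronic and 15.9% of intergenic regions. OCT4 octamers were in 2.00% of exonic regions and 2.70% of the grid, and YY1 in 2.00% and 3.10%. Among the 42 regions in both lists the SOX2 letters were in 9, or 21.4% (11.7% to 35.9%), and the NFY letters in 4. The E-box, ETS and SP/KLF letters were in 3 each, and the CTCF core and YY1 letters in 2 each. The OCT4 octamer and REST letters were in 1 each. The NRF1, ESRRB and ZBTB33 letters were in 0, with a Wilson interval of up to 8.38% for each. ZBTB33 letters were found in 1 member, Celsr3. In regions within 2000 bp of a TSS the CTCF core was in 12.7%, SP/KLF in 21% and NRF1 in 5.24%. A match describes the letters and is not a binding site.

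Along the genome, chromosome 8 held 40 exonic regions, or 14.5 per Mb of its eligible exon sequence, where the other autosomes lay between 4.85 and 10.4 per Mb. The excess was present in both libraries, with 5.44 against 2.69 per Mb in replicate 1 and 10.9 against 5.87 per Mb in replicate 2, and 5 of the 42 regions in both lists lay there, among them Adgra2, Mboat4 and St3gal2. Chromosome 8 was singled out because its density was the highest, and whether other kinds of region were also dense there was not examined. The number of copies of chromosome 8 in these cells was not measured. Chromosome X held 3 exonic regions, or 1.47 per Mb.

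Most genes held 1 region, 13 held 2 or more, and Sptbn5, a spectrin annotated here as noncoding, held 3. Its regions scored 22 and 23 in replicate 2 and, in both lists, 35 and 16. Synpo2l, Vasn, Lrfn1 and Grem1 each held 2 regions in the same exon, and in Synpo2l and Grem1 these came from different libraries. At the limits of the rule, the closest exonic region inside stood 2001 bp from a TSS and the farthest outside 2000 bp, with 28 members within 200 bp inside the limit and 24 regions within 200 bp outside it. The highest soft-masked share of a member was 49.2% and the lowest of the 15 distal exonic regions left out was 57.0%.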

How the data were processed

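The series held 2 CUT&Tag samples of 1 group. The authors deposited, for each sample, a list of peaks called with MACS2 with a score per peak, read here as 10 times the −log10 q-value cut to a whole number. Submitters' processing notes name STAR, Picard and MACS2 with mm10 and dm6, and the study's methods describe unique alignments, removal of duplicates, downsampling by Drosophila reads and blacklist exclusion. Its reporting form gives a MACS2 call that set an input file as the control, in a ChIP-seq section that also lists the anti-GFP antibody, and does not state whether this command made the CUT&Tag lists. Depth is not given in the sources used here. Peaks of both lists were merged where they shared a base, and 6 mitochondrial regions were dropped. Exons, TSSs and genes came from GENCODE mouse release 21 and sequence and further starts from RefSeq's GRCm38. Where several transcripts overlapped a midpoint, coding took priority over 5′ UTR, 3′ UTR and noncoding. Eligible sequence was over 2000 bp from every TSS and not soft-masked. No test was run: shares have 95% Wilson and densities exact Poisson intervals. Merging and region classes were tested on simulated peaks. The expected count by GC class was tested on simulated densities with classes of 2 percentage points only. Tools were scipy 1.17.1, Biopython 1.88, pandas 2.3.3 and numpy 2.4.6 under Python 3.11.15.

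The members, gene lists and named members were chosen with earlier results of these data known. The named members were the 10 best-ranked in both lists, the 5 widest, genes with 3 or more regions, up to 4 per gene list by score, and the 3 highest of each library alone. Genes named by CpG content, RefSeq start, finger pattern, list or library beyond this rule, the GC-class densities and chromosome 8 were chosen after values were seen. Lists were matched by symbol, mostly by prefix. Alternatives varied the exon rule, TSS distance, transcripts, repeat limit, score, list length, merging, windows and replicates.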

Additional observations from a re-analysis of the deposited data

How the results depend on the processing

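Of 150 values recomputed under alternatives, 106 stayed within 1.5 times the reported count, the 95% interval of the reported share, density, ratio or median, or 1 SD between libraries for the score. Keeping only peaks with a score of at least 50 moved most: 59 exonic regions, 10.6% of distal regions, 5.08% in both lists, a median score of 56.75 (mean of both libraries, 28.75 as reported), a median width of 450 bp, a median GC of 58.4%, 18.5% with a host promoter peak, 1.04 per Mb, 37.3% CpG-rich and 0.86 times the count at intronic densities. With lists of equal length these were 238 regions, 10.6% of distal regions, a score of 38.25, 26.5% with a promoter peak and 4.19 per Mb. With starts over 5 kb away there were 293 regions, 7.74% of distal regions, at 1.08 times the count at intronic densities. With starts over 1 kb away exonic regions were 11.5% of distal regions, and 54.7% of those in protein-coding genes had a host promoter peak. Transcripts of protein-coding genes alone gave 8.53% of distal regions and 9.08 per Mb. Transcripts with the basic tag gave 72.3% coding, a GC of 58.4%, 38.5% with a promoter peak, 9.26 per Mb and 50.7% in the last exon. With under 25% soft-masked bases exonic regions were 11.1% of distal regions, and with no such limit 6.47%, at 6.88 per Mb and 0.82 times the count at intronic densities. With at least 50% of bases in exons, 61.7% lay in the last exon and the ratio to intronic densities was 0.89. It was 0.88 with GC classes of 2 percentage points and 1.67 with classes of the CpG ratio, both chosen after seeing the data, as was the ratio itself. The median GC was 58.3% in 300 bp and 58.2% over the whole region. Leaving out replicate 1 or 2 gave 335 and 156 regions, median widths of 338 and 299 bp, 40.5% and 20.4% with a promoter peak, 5.90 and 2.75 per Mb, 59.1% and 52.6% in the last exon, and 25.7% and 14.7% CpG-rich; the share in both lists then has no value. The cause of these shifts was not tested beyond the fewer peaks or transcripts that an alternative keeps. No paired analysis was possible because there was 1 group of 2 libraries. Depth was unknown, so a region missing from 1 list cannot be told apart from one below its detection limit.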
